A study of Mus musculus with 7 samples.

Results

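Stretches of chromatin that were accessible in proB and preB cells and in no pre-proB population were described from ATAC-seq of mouse B-cell progenitors. In ATAC-seq, accessible DNA is cut and sequenced, and a peak marks a position where the fragments of a library exceed its background. Overlapping peaks of the 7 libraries were merged into 145247 union regions. A region was called open in a library when at least 1 bp of it overlapped a peak there. Of the union regions, 7543 (5.19%) were open in all 4 proB and preB libraries (WT and Rescue) and in none of the 3 pre-proB libraries (WT, Rescue and Erg KO). These regions were chosen by the peak calls of all 7 libraries, so their presence, q-value and fold in any library are given as description. Sequence, genomic position and neighbouring genes took no part in the choice.

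The 7 groups had 1 library each. WT cells were Ergfl/fl, floxed without Cre. Erg KO pre-proB cells were Rag1CreT/+;Ergdelta/delta, in which Cre from the Rag1 locus deletes Erg in lymphoid progenitors. The 3 Rescue libraries were Rag1CreT/+;Ergdelta/delta;IgHVH10tar, so they lacked Erg as well and carried a heavy chain that was already productively rearranged. That allele narrows the heavy chain repertoire of the cells. WT and Rescue were sampled at each of the 3 stages and Erg KO at the first. The study used mice of both sexes, with 1 age range stated for all of them, and the age, sex and number of mice behind each library were not found in the sources used here. With 1 library a group, no spread between mice could be measured and no test was made. A library is a bulk sample, so access in fewer cells and weaker access in each cell cannot be told apart.

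Each library was given the stage in its title. The source name of every Rescue library gives another stage, and under that reading only 38 regions would meet the same rule. Promoters of the marker lists were checked against the stages. Of 10 B-lineage markers, 10 had a promoter peak in each of the 4 proB and preB libraries, against 9, 7 and 6 in the WT, Rescue and Erg KO pre-proB libraries. Of 10 T cell markers, the Erg KO and Rescue pre-proB libraries had a promoter peak at 7, WT pre-proB, WT proB and Rescue proB at 5, Rescue preB at 3 and WT preB at 2. Plasmacytoid dendritic markers had a promoter peak at 10 of 10 genes in the 3 pre-proB libraries and at 7 to 9 in the others. NK and innate lymphoid markers had one at 4 to 7 of 10 genes, myeloid markers at 3 to 5 and erythroid markers at 5 in every library. The part of other cells in the selected regions was not tested.

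Pre-proB cells are the earliest B-lineage progenitors of the marrow. At the proB stage the factors E2A, Ebf1 and Pax5 commit the cells to the B lineage and the heavy chain genes are recombined, and at the preB stage the heavy chain pairs with the surrogate light chain into a pre-B-cell receptor. Signals from that receptor drive a burst of division, after which the kappa light chain locus is recombined. Transcription factors bind short DNA words, and octamer words are a known element of immunoglobulin promoters, bound by Oct factors (Pou2f1, Pou2f2) with the coactivator Pou2af1.

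Sequences at 8 of the regions show the words on which the comparison below turned. EBF1 words were searched as CCCNNGGGA and the octamer as ATGCAAAT, each on both strands, and capitals mark every match. The EBF1 word is nearly its own reverse complement, so a full palindrome TCCCNNGGGA matches on both strands. The first 6 windows are 201 bases centred on the highest summit of the region, on the plus strand of GRCm38. Both windows nearest to Edn3 and inside Gpatch2 come from the 6 strongest regions, those near Dapp1 and Foxo1 carry the EBF1 word at regulators of B-cell signalling, and those near Ebf1 and Pou2f1 carry the octamer.
Edn3, chr2:174871317-174871517: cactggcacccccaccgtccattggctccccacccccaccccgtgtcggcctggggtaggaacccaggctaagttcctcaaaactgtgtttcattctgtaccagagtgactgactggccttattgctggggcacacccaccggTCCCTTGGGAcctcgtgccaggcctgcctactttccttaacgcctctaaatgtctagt
Gpatch2, chr1:187328467-187328667: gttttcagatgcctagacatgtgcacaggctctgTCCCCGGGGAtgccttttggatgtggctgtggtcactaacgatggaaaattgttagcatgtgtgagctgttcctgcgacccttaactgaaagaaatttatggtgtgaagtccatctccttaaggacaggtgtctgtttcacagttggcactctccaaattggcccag
Dapp1, chr3:138016946-138017146: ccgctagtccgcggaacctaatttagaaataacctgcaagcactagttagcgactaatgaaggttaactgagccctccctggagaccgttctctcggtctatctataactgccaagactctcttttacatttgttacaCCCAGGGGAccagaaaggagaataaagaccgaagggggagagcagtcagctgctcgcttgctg
Foxo1, chr3:52189241-52189441: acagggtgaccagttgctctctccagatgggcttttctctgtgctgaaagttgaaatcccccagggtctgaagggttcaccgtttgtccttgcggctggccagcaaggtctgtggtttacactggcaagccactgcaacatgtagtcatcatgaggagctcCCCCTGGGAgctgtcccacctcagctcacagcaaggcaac
Ebf1, chr11:44577983-44578183: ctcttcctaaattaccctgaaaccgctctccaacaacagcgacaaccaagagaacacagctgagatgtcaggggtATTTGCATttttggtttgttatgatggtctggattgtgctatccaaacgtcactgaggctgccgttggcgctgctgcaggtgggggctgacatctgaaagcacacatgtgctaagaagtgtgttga
Pou2f1, chr1:165927966-165928166: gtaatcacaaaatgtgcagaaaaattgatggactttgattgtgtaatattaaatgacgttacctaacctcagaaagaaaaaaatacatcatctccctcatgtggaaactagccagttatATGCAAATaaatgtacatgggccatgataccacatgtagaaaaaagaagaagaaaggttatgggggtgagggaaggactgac

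The remaining windows are the 150 bases upstream of a kappa variable segment, read in the direction of the segment. They show an octamer 67 bp upstream of the annotated start of Igkv9-123 on the minus strand and 74 bp upstream of that of Igkv1-135 on the plus strand, next to a full EBF1 palindrome in the latter.
Igkv9-123, chr6:67954715-67954864: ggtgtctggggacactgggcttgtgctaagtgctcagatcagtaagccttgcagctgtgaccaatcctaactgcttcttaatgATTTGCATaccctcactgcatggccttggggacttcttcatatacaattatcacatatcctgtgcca
Igkv1-135, chr6:67609563-67609712: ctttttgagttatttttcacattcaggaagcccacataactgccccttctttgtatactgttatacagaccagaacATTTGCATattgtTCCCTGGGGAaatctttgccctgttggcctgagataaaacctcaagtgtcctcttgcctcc

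The selected regions were mostly distal. A region was called promoter when it came within 1000 bp of an annotated transcription start site (TSS), and others were placed by their summit. Promoters held 683 of the 7543 regions (9.05%, 95% interval 8.43 to 9.72), against 16.2% of all union regions, 32.8% of the 46442 regions open in all 7 libraries and 6.08% of the 16647 regions open only in the 3 pre-proB libraries. Introns held 3651 (48.4%), intergenic sequence 2901 (38.5%) and exons away from promoters 308 (4.08%). Coding genes accounted for 314 of the promoter regions, immunoglobulin or T cell receptor segments for 76, and non-coding genes or pseudogenes for 293. The intervals here and below are Wilson intervals, cover counting error only and treat regions as independent.

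The summit lay a median of 29704 bp from the nearest coding TSS, with quartiles of 9980 and 84494.5 bp. The same median was 22163 bp over all union regions, 11780 bp for regions open in all 7 libraries and 29356 bp for regions open only in pre-proB libraries. Of the selected regions 1651 (21.9%) lay over 100 kb from a coding TSS, against 16.6% of all union regions. Distance thus placed them close to the pre-proB regions and farther from genes than the shared regions. They had a median width of 605 bp and a median GC content of 48.8%, the same GC content as all union regions. Selected regions made up between 4.21% of the union regions on chromosome 4 and 6.42% on chromosome 19, and 4.53% on chromosome X. Chromosome Y had 0 of 51, with an upper bound of 7.0%.

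The peaks were of middling strength within each list. The −log10 q, the strength MACS2 gives a peak, had a median of 22.9 in WT proB, 21.1 in WT preB, 13.8 in Rescue proB and 23.1 in Rescue preB. All peaks of the same lists had medians of 23.9, 25.2, 20.4 and 26.1, and regions open in all 7 libraries had medians of 69.4, 55.5, 62.5 and 72.7. Rescue proB was the weakest of the 4. It also had the lowest background pileup (3.49 fragments, against 3.56 to 4.60 in the others). WT preB, with a median of 21.1, had a background of 3.56. A link between background and strength was not tested. The selected regions held 8.40% of the peaks in WT proB, 10.1% in WT preB, 8.48% in Rescue proB and 9.11% in Rescue preB. A −log10 q of at least 10 in all 4 libraries was reached by 3670 regions (48.7%).

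**Figure D1:**
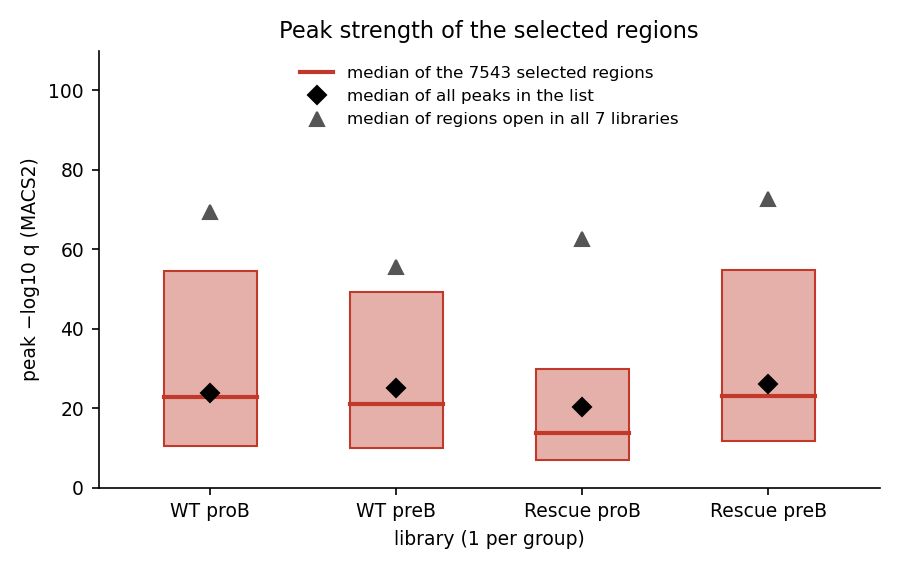
Peak strength (−log10 q, linear axis) of the 7543 selected regions in the 4 libraries that chose them, with the box from the first to the third quartile and the line at the median, beside the median of all peaks of the list (diamond) and of regions open in all 7 libraries (triangle). The selected regions lie near the list medians and below the shared regions in every library, and lowest in Rescue proB (median 13.8).

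The edge of the rule was broad. The nearest pre-proB peak was a median of 3401 bp away, with 2 bp as the smallest gap, and 1642 regions (21.8%) had a pre-proB peak within 1000 bp. Just outside the rule, 1554 regions were open in the 4 libraries and also in WT pre-proB alone among the pre-proB libraries, with a median −log10 q there of 8.07. Another 595 were also open only in Rescue pre-proB (median 5.29) and 379 only in Erg KO pre-proB (median 4.84). Regions that missed 1 of the 4 libraries numbered 939 for WT proB, 1093 for WT preB, 1498 for Rescue proB and 492 for Rescue preB. The weakest region inside the rule had a lowest −log10 q of 1.51.

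Each library was also left out of the choice and then looked up. Regions chosen on the other 6 libraries were open in the left-out WT proB for 88.9% (7543 of 8482), in WT preB for 87.3% (of 8636), in Rescue proB for 83.4% (of 9041) and in Rescue preB for 93.9% (of 8035). The remaining union regions were open in these libraries for 55.3%, 46.4%, 56.7% and 51.8%. In the pre-proB libraries, 17.1% of 9097 regions chosen without WT pre-proB were open there (16.3 to 17.9), against 7.31% of 8138 for the Rescue library (6.77 to 7.90) and 4.78% of 7922 for the Erg KO library (4.34 to 5.28). The other union regions, counted in the same way, were open in WT, Rescue and Erg KO pre-proB for 65.2%, 72.5% and 70.3%. These 3 shares cannot be set against each other, because the regions looked up in either library without Erg had to be closed in the other one, and WT pre-proB had no such partner.

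The strongest regions stood far from promoters. They were ranked by the lowest −log10 q over the 4 libraries, outside chromosome 18. A region at chr12:92818163-92819351, 969743 bp from the TSS of Sel1l, had a −log10 q of 567 in WT proB, 521 in WT preB, 540 in Rescue proB and 791 in Rescue preB. A region at chr10:115476291-115477021 in an intron of Lgr5, nearest to the TSS of Zfc3h1, had 433, 784, 444 and 886 in the same order. A region at chr13:115226322-115227866, 125064 bp from Itga1, an integrin subunit, had 403, 543, 594 and 893. Neither the Sel1l, the Lgr5 nor the Itga1 region held an EBF1 or octamer word within 100 bp of the summit.

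The region nearest to Edn3 (chr2:174870263-174872412), printed above, had a −log10 q of 357, 640, 479 and 770 in WT proB, WT preB and then Rescue proB and preB. The region inside Gpatch2 (chr1:187327920-187329184) had 574, 353, 410 and 394. The region nearest to Lmo4 (chr3:144006776-144007995), a LIM-domain cofactor gene, had 572, 529, 340 and 419. Of these 6 regions, the Lgr5, Itga1 and Edn3 regions had the higher −log10 q in preB in both genotypes, and the Gpatch2 region was stronger in proB in both. The Sel1l and Lmo4 regions were stronger in proB in WT and in preB in Rescue. A q-value also grows with the depth of a library, so an order between libraries is a description.

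Ranks of the selected regions were compared in 4 pairs of libraries that shared a stage or a genotype, and the preB pair was the most alike of these. The rank of a region within its list differed by at most 25 percentile points between WT preB and Rescue preB for 6935 regions (91.9%), between Rescue proB and Rescue preB for 6541 (86.7%), between WT proB and Rescue proB for 5906 (78.3%) and between WT proB and WT preB for 5754 (76.3%). The lists differ in length, with 91668 peaks in WT proB, 76465 in WT preB, 91471 in Rescue proB and 84453 in Rescue preB, so a rank is relative to its own list and a shift in rank is not a change in access. Over 25 points higher in preB than in proB in both genotypes were 252 regions, and 133 were over 25 points higher in proB in both. Of the regions ranked higher in preB 11.9% held the EBF1 word (8.47 to 16.5) and of those ranked higher in proB 25.6% (18.9 to 33.6). The E-box CAGCTG, a word bound by E2A and other E proteins, ran the other way, in 33.3% (27.8 to 39.4) and 12% (7.54 to 18.6). The ETS word CAGGAAG ran with the EBF1 word, in 7.94% (5.20 to 11.9) and 25.6% (18.9 to 33.6). The lower share in regions ranked higher in preB was thus not particular to EBF1. The other words compared had intervals that overlapped between the groups.

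Sequence set the selected regions apart from the rest. Among 21 short words searched on both strands within 100 bp of the summit, the EBF1 word CCCNNGGGA was in 1287 of the 7543 regions (17.1%, 16.2 to 17.9), against 5.26% of the other union regions (5.15 to 5.38) and 1.37% of regions open only in pre-proB libraries (1.20 to 1.56). Its letters in reverse order, a control of the same composition, were in 3.21%, 3.0% and 2.15%. The palindrome TCCCNNGGGA was in 6.35% of the selected regions, 1.28% of the others and 0.0961% of the pre-proB regions. The EBF1 word was about equally common in each position class, with 16.7% of promoter, 21.8% of exonic, 17.5% of intronic and 16.1% of intergenic selected regions, against 4.98% to 6.24% of other union regions in these classes. Selected regions were split into 4 equal groups by lowest −log10 q. The EBF1 share rose from 10.8% in the weakest group to 16%, 18.9% and 22.5% in the following groups. This rise was not particular to the EBF1 word. Over the same groups CAGCTG rose in each step from 16.9% to 29%, and the octamer from 4.51% to 8.85%. The PU.1-IRF word GAANTGAAA rose from 2.65% to 4.14%, though not in each step. The PU.1 word GAGGAAG and the CTCF word CAGGNGGC were no more common in the strongest group than in the weakest.

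The octamer ATGCAAAT was in 504 selected regions (6.68%, 6.14 to 7.27), against 1.80% of the other union regions (1.73 to 1.87) and 0.499% of regions open only in pre-proB libraries (0.402 to 0.618). Its reversed letters were in 0.09% to 0.10% of each set. Outside the kappa locus it was in 464 of 7437 regions (6.24%). Both words lay in the same window in 48 regions (0.636%), against 0.0908% of the others.

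Other words differed less or ran the other way. The PAX5 core GCGTGAC was in 1.43% of the selected regions (1.19 to 1.73), 0.882% of the others and 0.294% of the pre-proB regions (0.223 to 0.389). Its reversed letters were in 0.89%, 1.13% and 0.69%, and so ran the other way between the selected and the other regions. The RUNX word TGTGGTT was in 7.73% against 11.0% of the others and 15.2% of the pre-proB regions, the PU.1 word GAGGAAG in 14.1%, 16.7% and 19.0%, and the PU.1-IRF word GAANTGAAA in 3.22%, 5.18% and 7.65%. The IRF word GAAANNGAA was in 6.44%, 9.58% and 13.3%. The reversed letters of the PU.1 word (5.0%, 6.17% and 6.36%) and of the IRF word (5.79%, 8.04% and 9.97%) were lower in the selected regions too, so the lower shares of these words are not particular to them. The reversed RUNX letters (2.64%, 2.81% and 3.33%) and PU.1-IRF letters (0.955%, 1.11% and 1.45%) differed less than the words did. CAGCTG (21.8% against 20.2%), the ETS word CAGGAAG (15.4% against 14.8%), the FOXO word TGTTTAC (3.09% against 2.61%) and the MEF2 word CTAAAAATA (0.80% against 0.59%) were close to the other union regions. The CTCF word CAGGNGGC was in 6.24% against 7.76%. Some of these words can overlap, and a match describes the letters only.

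**Figure D2:**
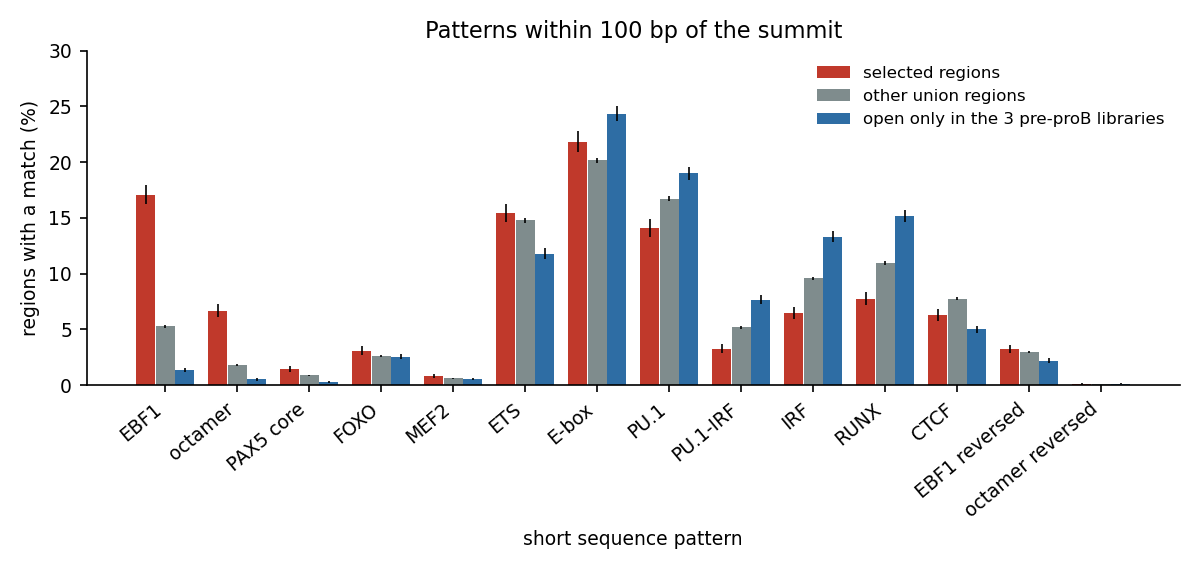
Share of regions (%) with each short word within 100 bp of the summit, for the selected regions, the other union regions and regions open only in the 3 pre-proB libraries, with Wilson 95% intervals as error bars and the reversed EBF1 and octamer letters as controls. EBF1 (17.1%) and the octamer (6.68%) stand above both other sets, and RUNX, PU.1, PU.1-IRF and IRF words stand below them, as do the reversed PU.1 and IRF letters, which are not plotted.

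Both words clustered at the summit. The EBF1 word had 91.6 and 85.1 matches per 1000 selected regions in the pair of 50 bp bins beside the summit, counted on each strand, and 8.0 to 12.5 in bins from 175 to 475 bp away. Distal regions open in all 7 libraries reached 18.2 and regions open only in pre-proB libraries 4.2 beside the summit, below the 5.8 to 7.9 of the latter beyond 175 bp. The octamer had 22.8 and 22.7 matches per 1000 selected regions beside the summit and 2.0 to 3.8 from 175 bp outward.

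**Figure D3:**
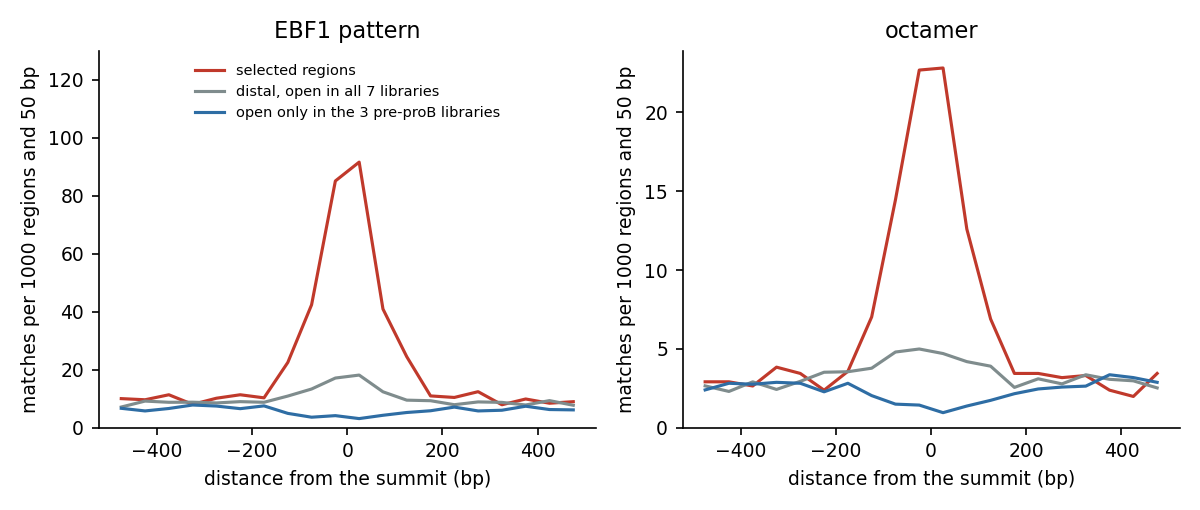
Matches per 1000 regions in 50 bp bins by distance from the summit (bp), for the EBF1 word and the octamer, in the selected regions, distal regions open in all 7 libraries and regions open only in the 3 pre-proB libraries. The selected regions peak at the summit, at 91.6 for EBF1 and 22.8 for the octamer, and fall to the level of the other sets within about 200 bp.

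The EBF1 word was also common in some neighbouring classes of region. It was in 24.5% of the 1554 regions open also in WT pre-proB (22.4 to 26.7), 16.5% of the 1251 regions open only in both proB libraries and 5.91% of the 1708 open only in both preB libraries (4.89 to 7.13). The octamer was in 5.15%, 3.12% (2.29 to 4.23) and 4.98% of these, so its share was higher in the selected regions than in those open only in proB. Regions open only in WT proB and preB held the EBF1 word in 16.4% and the octamer in 3.90% (2.97 to 5.12). Those open only in Rescue proB and preB held them in 8.95% and 4.91% (3.69 to 6.51). Those open only in WT proB held them in 14.6% and 2.69%. EBF1 sequence is thus not particular to the selected regions. The octamer share lay above that of each of these classes. Its interval met those of the class open also in WT pre-proB and of the class open only in Rescue proB and preB. Outside the kappa locus the octamer share of the selected regions was 6.24% (5.71 to 6.81). That interval also met the interval of the class open only in both preB libraries (4.04 to 6.11), whose kappa regions were kept.

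The densest group lay in the kappa light chain locus. Igk (chr6:67555497-70726966), where variable and joining segments of the kappa light chain are recombined, held 106 selected regions of its 295 union regions (35.9%, 30.7 to 41.6), against 5.19% of all union regions. Igh, the heavy chain locus, held 21 of 318 (6.60%) and Igl, the lambda locus, 1 of 26. Tcrb held 2 of 65, Tcra and Tcrd held 0 of 114, which allows up to 2.63%, and Tcrg 0 of 22, which allows up to 13.6%. The number of Igk union regions that were open was 66, 77 and 70 in the WT, Rescue and Erg KO pre-proB libraries, against 195 in WT proB, 204 in Rescue proB, 215 in WT preB and 245 in Rescue preB. These counts include the 106 selected regions, which the rule fixed as open or closed, so part of this contrast was set in advance.

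Variable segments were counted as well, on the peak calls that the rule used. Segments at selected regions set part of the contrast between stages in advance, so the counts are description. Of 100 Igk variable genes, 47 had a selected region within 1000 bp of their start, and of 60 variable pseudogenes 12 had one. Any peak there was found at 23, 23 and 21 variable genes in the WT, Rescue and Erg KO pre-proB libraries. The number was 72 in WT proB, 70 in Rescue proB, 87 in WT preB and 84 in Rescue preB. The pre-proB libraries gave nearly equal numbers, and each preB library gave more than the proB library of its genotype.

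**Figure D4:**
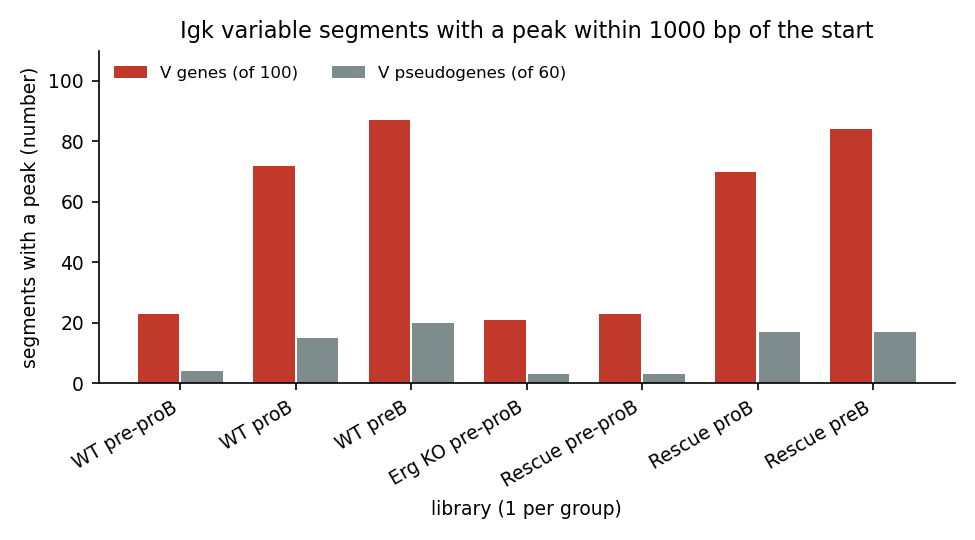
Number of Igk variable genes (of 100) and variable pseudogenes (of 60) with a peak within 1000 bp of the annotated start in each of the 7 libraries. The pre-proB libraries show 21 to 23 variable genes, the proB libraries 70 and 72 and the preB libraries 84 and 87. The counts include peaks of the selected regions, which were chosen by these calls.

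The octamer was frequent in this locus. It was in 40 of the 106 Igk regions (37.7%, 29.1 to 47.2), and in 34 of the 69 that lay at a promoter (49.3%), against 29 of the 189 other union regions of the locus (15.3%, 10.9 to 21.2). Where a selected promoter region with an octamer touched a variable segment, the octamer was 1 to 150 bp upstream of the start for 22 of 32 segments, at a median of 87.5 bp. The segments themselves were then compared by their own 150 bp upstream. Of the 47 variable genes with a selected region 30 (63.8%, 49.5 to 76.0) had an octamer there, as had 25 of 46 with a peak that was not selected (54.3%, 40.2 to 67.8) and 5 of 7 with no peak, with intervals that overlap. Of the variable pseudogenes, 9 of 12 with a selected region had one (75%, 46.8 to 91.1), against 4 of 8 with another peak and 8 of 40 with no peak (95% interval 10.5 to 34.8%). Pseudogenes with a selected region thus had the octamer more often than those with no peak, with intervals that do not overlap. These intervals treat segments as independent, which related segments need not be, and the variable genes showed no such difference.

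The strongest of these was the region at Igkv9-123 (chr6:67953899-67955475), with a −log10 q of 278 in WT proB, 357 in WT preB, 225 in Rescue proB and 445 in Rescue preB. The region at Igkv1-135 (chr6:67609191-67610887) had 292, 174, 300 and 349. The 2 segments differed in their order in WT, where Igkv9-123 was stronger in preB and Igkv1-135 in proB, while both were stronger in preB in Rescue.

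Genes were assigned by the nearest coding TSS. Of 21938 coding genes, 4038 (18.4%) were nearest to at least 1 selected region, 1514 to at least 2, 239 to at least 5 and 32 to at least 10. The 239 genes took up 1765 of the regions (23.4%). Rpia (46 regions) flanks the kappa locus, whose segments were not counted as coding genes, and Adam6a (13), a metalloprotease-family gene, lies inside Igh. Counts per gene follow how much open chromatin lies near a gene, so the number of union regions is given with each.

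Among the genes with most regions were several regulators of chromatin or transcription, which are described first. Arid1b, a subunit of the BAF remodelling complex, had 19 of its 115 nearest union regions selected, Zfp608, a zinc-finger gene, 19 of 119 and Lmo4 19 of 108. Mef2c, a MADS-box factor of B cells, had 16 of 141. Foxp1, a forkhead factor required for early B-cell development, had 14 of 147, all in its gene body, and Zeb2, a zinc-finger repressor, had 14 of 110 with none in its body. Their shares ran from 9.52% for Foxp1 to 17.6% for Lmo4, and since the genes were taken for their number of selected regions, nothing is read from these shares.

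The other leading genes were of mixed function. Lpp, a LIM-domain gene of cell adhesions, had 15 of 95 and Nrp1, a semaphorin and VEGF coreceptor, 14 of 85. Prim2, the large primase subunit, had 13 of 62, with a region at a promoter. Lpin1, a phosphatidate phosphatase, had 13 of 47 (27.7%) and Msi2, an RNA-binding protein of stem cells, 12 of 46 (26.1%) with 14 in its body. Lpin1 had 1 region open only in the pre-proB libraries, Msi2 1, Nrp1 1 and Prim2 0, against 19 for Foxp1 and 12 for Zeb2.

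Regions sat together at a few genes. Within 10 kb of another selected region lay 2186 (29.0%), against 35.7% of the regions open only in pre-proB libraries, so clustering was not particular to them. Of 6312 clusters, single regions included, 15 held at least 5 regions. The largest was a run of 7 at chr19:58806332-58836958 between Hspa12a and 1700019N19Rik, out of 12 union regions. Runs of 6 lay at Pou2af1 (chr9:51194791-51226176, 11 union regions), in Msi2 (chr11:88525084-88549474, all 6 union regions), near Ufm1 and at 2 places in Igk. Irf4 had a run of 5 (chr13:30711877-30737744) and Ikzf3 a run of 4 (chr11:98515387-98543002).

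B-lineage transcription factors were the list with most genes touched. Of 41 listed factors 33 (80.5%) were nearest to a selected region, 26 to at least 2, and the 168 regions made up 9.09% of their 1848 nearest union regions, against 5.19% over all coding genes. The median factor had 3 regions and the median coding gene 0, but genes touched and regions per gene also rise with the number of union regions near a gene. Mef2c, Foxp1 and Zeb2 led the list, followed by Pax5, Ebf1, Runx1 and Tcf4 with 9 each. By share, Ikzf3, which encodes Aiolos, had 5 of 8 nearest union regions selected and Pou2af1 6 of 12. Both were singled out after their values were seen.

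Pax5, the factor that keeps B cells committed, had 9 of 40 nearest union regions selected. The strongest (chr4:44708915-44709716) lay 1171 bp from a TSS, with a −log10 q of 168 in WT proB, 236 in WT preB, 154 in Rescue proB and 295 in Rescue preB. The other 8 had a lowest −log10 q from 4.93 to 19.1, and 1 of them, upstream of the gene (chr4:44728735-44729585), reached 150 in WT proB against 19.1 in WT preB. Ebf1, which acts upstream of Pax5, had 9 of 71. Its strongest, the octamer region printed above 39234 bp from the TSS, had 88.9 in WT proB, 381 in WT preB, 61.2 in Rescue proB and 334 in Rescue preB. That region was stronger in preB than in proB in both genotypes.

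Foxo1, a forkhead factor that drives the recombinase genes, had 6 of 81. The strongest (chr3:52188924-52190919) lay 78995 bp from its TSS, in an intron of some annotated gene, which need not be Foxo1. It had a −log10 q of 217, 261, 175 and 281 in WT proB, WT preB and then Rescue proB and preB. Irf4, which acts downstream of the pre-B-cell receptor, had 6 of 41, the strongest 27977 bp from its TSS (chr13:30720598-30723494) with 341, 353, 241 and 311. Pou2af1, the octamer coactivator, had its strongest region (chr9:51210703-51211788) 2547 bp from the TSS with 167, 118, 66.5 and 91.7. Irf4 and Foxo1 regions kept a narrow range over the 4 libraries, and the Pou2af1 region was strongest in WT proB. Erg itself, the deleted gene, had 4 of 58, which the rule required to be open in WT and in the Rescue cells that lack Erg. Its strongest (chr16:95631496-95632300) had 21, 84.8, 92.6 and 257 in WT proB, WT preB and then Rescue proB and preB, and the exon that was deleted was not checked.

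The list of pre-B-cell receptor components also held other surface receptor genes, such as Cd22, Cd81 and Cr2. Of the 11 listed genes 5 were nearest to a selected region, 7 regions in all (8.64% of 81 union regions). The promoter regions named here lay at those other receptor genes. Cd22 and Cd81 each had one at the promoter. The Cd22 promoter region (chr7:30879928-30880717), at an inhibitory receptor gene, had a −log10 q of 11.4, 13.5, 13.8 and 9.45 in WT proB, WT preB and then Rescue proB and preB. Cd79a, a signalling chain of the receptor, had a weak exonic region with 8.29, 16.3, 3.61 and 6.43. The region nearest to Cr2, 1 of 20, was stronger, with a lowest −log10 q of 134.

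Signalling genes of the receptor were touched in 16 of 25 cases, against 18.4% of coding genes, but their 45 regions made up 6.15% of 732, near the 5.19% over all coding genes and the 6.40% of housekeeping genes. Pik3r1, a regulatory subunit of PI3 kinase, had 10 of 104, Rasgrp3, an activator of Ras, 6 of 30, Bank1, a scaffold, 4 of 42 and Blnk, the adaptor that links Syk to downstream enzymes, 4 of 17. The strongest region of the list was nearest to Pik3r1 (chr13:101569024-101569995), with 304, 677, 391 and 791 in WT proB, WT preB and then Rescue proB and preB. The Dapp1 region printed above, at an adaptor gene and named for its sequence, had 327, 559, 223 and 579. Both were stronger in preB than in proB in both genotypes.

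The other lists are read against the same background of 18.4% of coding genes and 5.19% of regions. V(D)J recombination had 3 of 13 genes and 7.81% of only 64 regions, with Rag1 at 2 of 5 regions. Its promoter region (chr2:101648102-101648846) had 45.2 in WT proB, 25.2 in WT preB, 6.35 in Rescue proB and 27.2 in Rescue preB. Rescue proB, the lowest here, was also the weakest library over all selected regions. Rescue cells carried Rag1Cre and WT cells did not, so the genotypes cannot be set against each other at this gene. Hmgb1 had 2 of 15 and Xrcc6 1 of 8. Surface and antigen presentation genes had 13 of 27 and the highest share of regions of the 13 lists, 10.4% of 471, led by Ptprc (CD45) with 12 of 86, Ly86 with 7 of 62, Enpep (BP-1) with 6 of 31 and Cd2 with 5 of 29. The IL-7 receptor pathway had 5 of 13 genes and 5.88% of regions, with Il7r at 3 of 22, Stat5b at 2 of 12, Socs2 at 2 of 11 and Jak1 at 1 of 32.

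Homing receptors had 9 of 14 genes and 7.26% of regions, led by Cxcr4, the marrow retention receptor, with 10 of 74, then Cxcr5 with 4 of 19, S1pr1 with 3 of 53 and Itgb1 with 3 of 27. Survival and cell cycle genes had 9 of 18 and 6.05%, with Btg1 at 9 of 81, Bcl2l1 at 4 of 15, Bcl2l11 at 3 of 57 and Bmf at 3 of 15. Both lists were above the share of all coding genes in genes touched, but that share also rises with the number of union regions near a gene. In regions, the survival list was close to the 5.19% over all coding genes.

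Genes of other lineages were touched too. T-lineage specification had 7 of 19 genes and 5.38% of regions, with Hes1 at 5 of 55, Dtx1 at 4 of 13, and Notch1 and Cd5 at 2 of 18 each. Dtx1, a Notch pathway gene, held a strong intronic region (chr5:120690244-120691765) with 179, 607, 232 and 719 in WT proB, WT preB and then Rescue proB and preB. Myeloid genes had 6 of 15 and 10.2% of only 128 regions, with Cebpb at 4 of 26 and Csf1r, Csf2ra and Csf3r at 2 each. Stem and progenitor factors had 7 of 20 and 3.27%, with Gfi1 at 4 of 24, Lmo2 at 2 of 29, Flt3 at 1 of 17 and Hoxa10 at 1 of 5. NK and innate lymphoid genes had 2 of 15 and 1.75%, with Id2 at 3 of 87 and Klrb1c at 1 of 17. Housekeeping genes had 3 of 15 and 6.40% of 125, with Ywhaz at 4 of 43, Hprt at 3 of 17 and Actb at 1 of 13. Low shares were found for stem, NK and innate lymphoid genes, and the myeloid share rests on 13 regions.

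**Figure D5:**
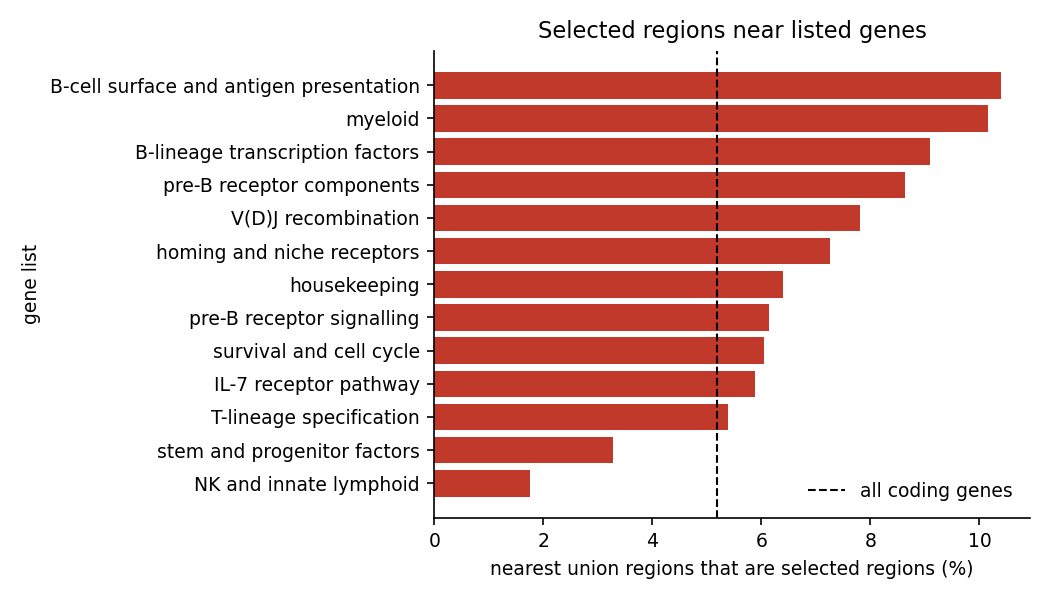
Share (%) of the union regions nearest to the genes of each list that were selected regions, with the share over all coding genes (5.19%) as a dashed line. Surface genes (10.4%), myeloid genes (10.2%, 128 regions) and B-lineage transcription factors (9.09%) stand above the line, and stem (3.27%) and NK and innate lymphoid genes (1.75%) below it.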

How the data were processed

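Chromatin accessibility was profiled by ATAC-seq in 7 libraries of sorted B-cell progenitors, 1 per group. Reads were aligned to mm10 (GRCm38) by Bowtie2 and MACS2 called peaks in each library by itself. The submitters' processing notes also name CASAVA 1.8.2 and Picard. The versions and options of Bowtie2 and MACS2, the handling of duplicates, any shift of read ends and any control were not given in the sources used here. Methods name sonication where the labels name Tn5. These choices set peak numbers and widths.

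Each list deposited by the authors had 10 columns. In the deposited columns the score is the −log10 q multiplied by 10 without its decimals, and the fold is the ratio of the pileup at the summit to the background. The authors also gave the −log10 p and the −log10 q of each summit, and the summit's distance from the peak start. Read totals are not in the lists. Folds were whole multiples of 1 step (within 0.02), which gave background pileups of 3.49 to 4.60 and lowest called summit pileups of 10 to 12, so a region without a peak can still hold fragments.

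Peaks sharing at least 1 bp were merged. Genes came from the GENCODE M21 basic annotation and sequence from RefSeq GRCm38.p6, and coordinates are written from 1. Windows were centred on the summit with the highest fold of each region. Scripts ran in Python 3.11.15 with numpy 2.4.6, pandas 2.3.3, scipy 1.17.1, pysam 0.24.0 and matplotlib 3.10.9, and the merging, the rule and the word search were tested on simulated data. No significance test was run, since each group had 1 library. The regions, gene lists and words were chosen with earlier results of these data known. Genes named were the 15 with most regions, up to 4 per list by number of regions, the 6 strongest regions outside chromosome 18 and Erg. The printed sequences and Dapp1, Ebf1, Foxo1, Ikzf3, Irf4, Pou2af1, Pou2f1, Runx1 and Tcf4 were chosen after their values were seen. Some genes that the rule names are not reported here. Alternatives covered list length, peak threshold, overlap, union regions, distance to pre-proB peaks, Rescue stages, windows, gene assignment and each library left out.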

Additional observations from a re-analysis of the deposited data

How the results depend on the processing

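Taking Rescue stages from the source names left 38 regions, of which 7.89% were at promoters and 7.89% held the EBF1 word, 0% the octamer (0 of 38 allows up to 7.89%) and 0% of the Igk union regions (0 of 295 allows up to 1.02%). These counts of 0 are too few to give a direction: the first limit includes the reported 6.68%, and 0.0262% of the union regions outside Igk met the rule. A −log10 q of at least 10 for presence alone left 3670 regions and 2377 nearest coding genes, with 8.07% at promoters, 20.9% with the EBF1 word, 7.85% with the octamer and 22.0% of Igk regions. The same threshold in every list gave 10.5% at promoters and 18.9% with the EBF1 word. Lists of equal length gave 11.2% at promoters and peaks covering at least 50% of a region 10.3%. WT proB peaks in place of union regions gave 54.9% in Igk. A promoter window of 2500 bp gave 17.3%, and a sequence window of 400 bp gave 21.5% with the EBF1 word. With each library left out in turn, the selected regions numbered 7928 to 9105, 8.76% to 9.36% were at promoters, 15.7% to 18.3% held the EBF1 word, 6.34% to 6.66% the octamer, and 36.3% to 40.5% of Igk regions were selected. The cause of these shifts was not tested. Of 75 recomputed values, 54 stayed within the interval of the reported share or within 1.5 times the reported count. The octamer and Igk settings were added after seeing the data. Regions near the limit of detection in a pre-proB library cannot be told from closed ones at this depth, and no paired analysis was possible because each group had 1 library.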
